A study of Mus musculus with 4 samples.

Results

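The 10 genes Fbxw13, Fbxw14, Fbxw15, Fbxw16, Fbxw18, Fbxw19, Fbxw20, Fbxw21, Fbxw22 and Fbxw24 of mouse chromosome 9 were taken by name from a table of 25587 genes, and each of the 10 was listed once. Their RNA was measured by RNA-Seq in oocytes of wild-type C57BL/6Babr mice (C57BL/6 in the labels) at 4 stages of folliculogenesis. Non-growing oocytes (NGOs) were 10 to 40 µm wide and came from mice aged 5 days. Growing oocytes of the first stage (GO1) were 25 to 70 µm wide and came from mice aged 8 to 14 days, those of the second stage (GO2) were 50 to 70 µm wide and came from mice aged 15 days, and fully grown oocytes (FGOs) were wider than 70 µm and came from mice aged 20 days. Each stage was a pool of oocytes sequenced as 1 library, so there was no replicate check of any value and no p value was computed. The NGO and FGO libraries followed a dUTP protocol, whereas GO1 and GO2 were prepared with ScriptSeq. Stage and protocol cannot be told apart between these 2 kinds of library, and the comparisons therefore pair NGOs with FGOs, and GO1 with GO2.

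F-box proteins are the substrate-binding subunits of SCF ubiquitin ligases, in which the F-box holds the adaptor Skp1, and Skp1 joins it to the scaffold Cul1 and the RING protein Rbx1. In the Fbxw class the F-box is followed by WD repeats, which fold into a propeller that in well-studied members binds the substrate. The chromosome 9 genes are tandem copies known for expression in the oocyte, and the substrates of most of them are not established.

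The coding sequences of the 10 genes began almost alike, and their first 72 bases (GENCODE M21) are shown because they make the likeness of the members visible. Capitals mark a 10-base run found in all 10 genes, which started at base 41 of the coding sequence in 9 of them and at base 50 in Fbxw18.
Fbxw21: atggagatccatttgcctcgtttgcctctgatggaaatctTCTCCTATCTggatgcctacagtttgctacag
Fbxw13: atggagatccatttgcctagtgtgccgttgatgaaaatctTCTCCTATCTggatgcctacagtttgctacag
Fbxw20: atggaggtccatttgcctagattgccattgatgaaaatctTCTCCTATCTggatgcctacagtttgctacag
Fbxw14: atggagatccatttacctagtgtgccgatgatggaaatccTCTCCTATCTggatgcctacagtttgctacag
Fbxw22: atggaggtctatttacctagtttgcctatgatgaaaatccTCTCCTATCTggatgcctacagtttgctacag
Fbxw16: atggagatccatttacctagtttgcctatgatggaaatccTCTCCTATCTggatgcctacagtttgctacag
Fbxw19: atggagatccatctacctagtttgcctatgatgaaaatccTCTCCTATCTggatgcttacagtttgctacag
Fbxw15: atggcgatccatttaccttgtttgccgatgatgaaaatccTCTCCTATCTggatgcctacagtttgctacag
Fbxw24: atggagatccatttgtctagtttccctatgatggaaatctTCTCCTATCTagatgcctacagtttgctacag
Fbxw18: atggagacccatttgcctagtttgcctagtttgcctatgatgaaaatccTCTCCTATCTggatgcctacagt

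The 10 genes lay on the minus strand in 563 kb of chromosome 9 (GRCm38), from Fbxw21 at chr9:109139454-109162041 to Fbxw18 at chr9:109676734-109702700. Each spanned 15.7 to 26.0 kb, with gaps of 17.2 to 90.7 kb between neighbours. The coding transcript of each had 10 exons, and its coding part was 1392 to 1407 bases long. Over the 45 pairs of members, the coding sequences were 79.8 to 92.3 % identical, with a median of 83.2 %. Fbxw14 and Fbxw22 formed the closest pair and Fbxw14 and Fbxw24 the most distant one. Closer than any pair of members was Fbxw14 with Fbxw28, a gene between Fbxw14 and Fbxw22 that was not among the 10, at 99.1 % identity.

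**Figure D1:**
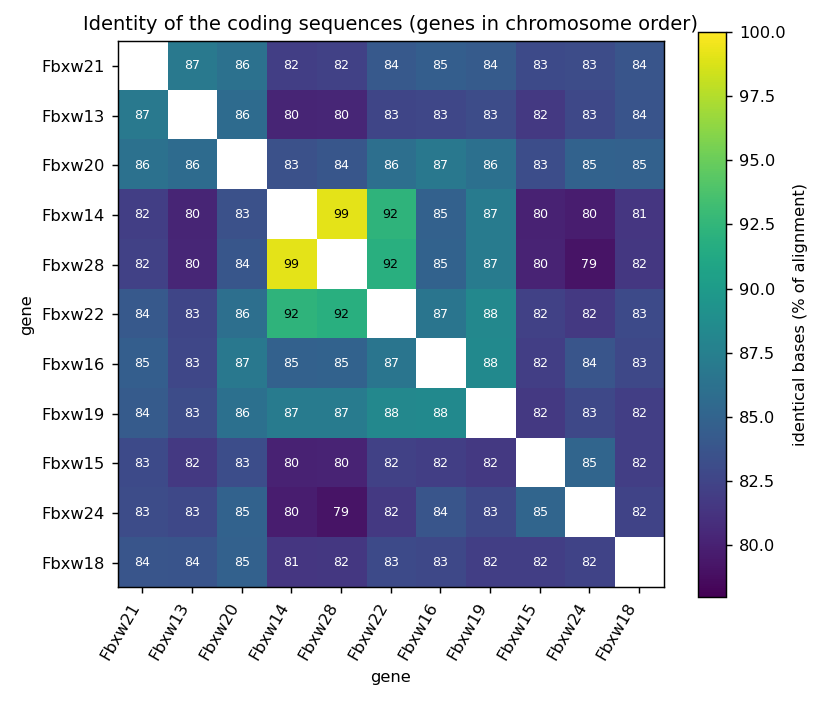
Identity of the coding sequences of the 10 genes and Fbxw28, in chromosome order, as the percentage of identical bases in each pairwise alignment (colour scale from 78 to 100 %, rounded values printed). Fbxw14 and Fbxw28 stand out at 99.1 %, and the next closest pair of members, Fbxw14 and Fbxw22, reached 92.3 %.

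All 10 genes were strongly expressed in all 4 libraries. RPKM, which divides the reads of a gene by its exon length and by the size of the library, is the scale of every level given here. Each of the 10 reached at least 1 RPKM in every library, a level reached by 36.6 to 38.5 % of all listed genes. Even the lowest of the 10 lay at percentile 94.7 of all listed genes in NGOs and at percentile 98.1 to 98.9 in the other libraries. Summed over the 10 genes, the level was higher at each later stage, with 1395 RPKM in NGOs, then 1765 (GO1), 1929 (GO2) and 2360 RPKM (FGOs). This was 0.741 %, 1.01 %, 1.14 % and 1.26 % of the summed RPKM of all genes, respectively. The step from GO2 to FGOs is not kept when the libraries are scaled by their upper quartile. In pooled cells, fewer oocytes with the transcript and less transcript per oocyte cannot be told apart, and RPKM is a share of the library and gives no amount per oocyte.

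Fbxw24 was the most abundant of the 10 in every library, with 476, 434, 445 and 573 RPKM at the NGO, GO1, GO2 and FGO stage, and the levels of the other genes are in the same order. It ranked 29th, 34th, 30th and 22nd among all listed genes in these libraries, and supplied 34.1 % of the summed level of the 10 genes in NGOs and 23.1 to 24.6 % in the others. Its lowest values were those of the 2 ScriptSeq libraries.

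Fbxw15, its closest neighbour on the chromosome among the 10, showed the same order of libraries but further apart, with 279, 212, 232 and 341 RPKM. Fbxw15 and Fbxw24 were the only members with both ScriptSeq libraries below both dUTP libraries, a pattern of 32.7 % of the 12128 genes that reached 0.5 RPKM in any library.

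Fbxw14 was at 167, 315, 298 and 415 RPKM. It had rank 3 among the 10 in NGOs and rank 2 in each later library.

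Fbxw16 was at 105, 143, 166 and 222 RPKM in NGOs, GO1, GO2 and FGOs. Fbxw21 was at 84.2, 129, 173 and 175 RPKM in the same order. Fbxw22 was at 26.2, 52.2, 61.6 and 83.1 RPKM. These 3 members were higher in each library than in the one before it, compared with 11.2 % of the 12128 genes. The last step of Fbxw21, however, was small and is not kept when the libraries are scaled by their upper quartile.

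Fbxw18 was at 119, 192, 185 and 199 RPKM, so that the 3 later libraries lay close together above the NGO library. Fbxw13 was at 48.8, 91.2, 99.9 and 97.3 RPKM. Fbxw20 was at 46.9, 76.1, 86.5 and 82.3 RPKM. Like Fbxw18, both had their lowest value in NGOs by a clear margin and differed little among the later libraries.

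Fbxw19 had the widest relative range over the libraries, with 43.7, 121, 182 and 172 RPKM. It had rank 9 of the 10 in NGOs and rank 5 in GO2. The number of members lowest in NGOs was 8 (all but Fbxw15 and Fbxw24), compared with 30.2 % of the 12128 genes. Without scaling, 7 of 10 were highest in FGOs (all but Fbxw13, Fbxw19 and Fbxw20), as were 29.0 % of the 12128 genes. When the libraries were scaled by their upper quartile or by a trimmed mean of ratios, Fbxw18 and Fbxw21 were lower in FGOs than in GO2. The share of all genes highest in FGOs was computed without scaling only.

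**Figure D2:**
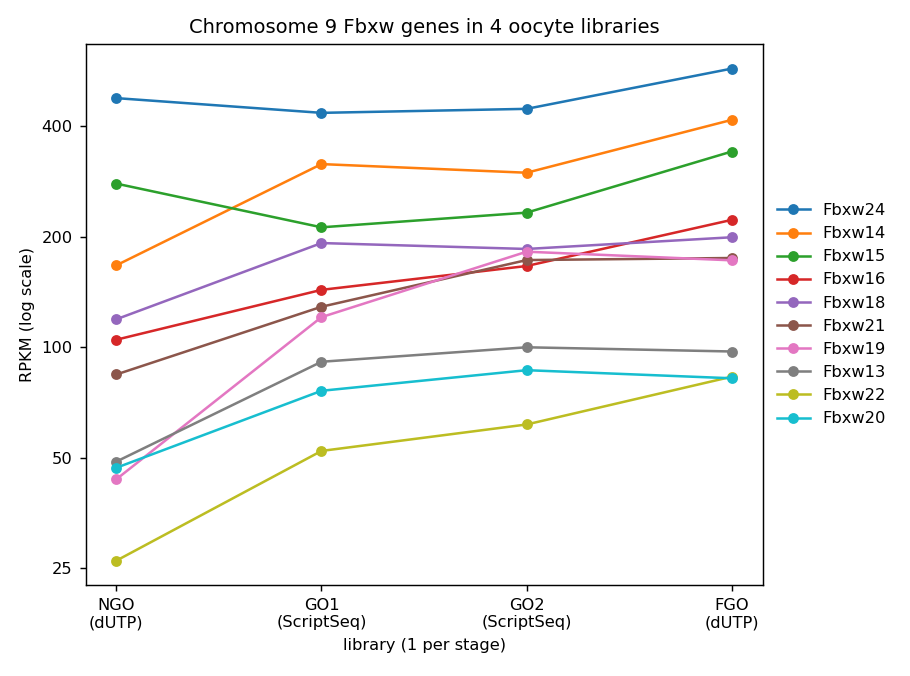
Level of each of the 10 genes (RPKM, log axis) in the 4 libraries, 1 per stage, with the protocol under each stage. Fbxw24 is on top throughout, from 434 to 573 RPKM. Fbxw19 is at 43.7 RPKM in NGOs and 172 in FGOs (dUTP), and at 121 in GO1 and 182 in GO2 (ScriptSeq).

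The levels of the members were closer together in the 3 later libraries than in NGOs. The highest member was 18.2 times the lowest in NGOs, and 8.32, 7.23 and 6.96 times the lowest in GO1, GO2 and FGOs. The 3 most abundant members supplied 66.1 % of the summed level of the 10 in NGOs, and 54.4, 50.6 and 56.3 % in the later libraries. The lowest member was Fbxw22 in NGOs, GO1 and GO2, and Fbxw20 in FGOs. The order of the members was otherwise similar between libraries, with Spearman's rho over the 10 genes from 0.855 (NGOs and GO2) to 0.976 (GO1 and FGOs), given as a description since the genes share libraries and sequence.

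The depth behind these values was high. The numbers of reads recovered from the RPKM values were 5291 to 78399 per member in NGOs, 12067 to 82963 (GO1), 27116 to 159985 (GO2) and 17610 to 103283 (FGOs). The widest relative interval was that of Fbxw22 in NGOs, 26.2 RPKM with an exact 95 % Poisson interval of 25.5 to 26.9, which covers counting error only. The totals behind the RPKM values are several times the uniquely mapped reads, so fragments may have been counted more than once and these intervals are then too narrow. With the reads divided by 4, more than that excess, the interval was 24.8 to 27.7 RPKM. Neighbours in the order had overlapping intervals at 2 places, both in FGOs, where Fbxw21 (175 RPKM, 173 to 176) could not be separated from Fbxw19 (172 RPKM, 170 to 174), nor Fbxw22 (83.1 RPKM, 81.9 to 84.3) from Fbxw20 (82.3 RPKM, 81.3 to 83.2). With the reads divided by 4, there were 5 such places, which added Fbxw13 with Fbxw20 and Fbxw20 with Fbxw19 in NGOs, and Fbxw18 with Fbxw19 in GO2. The order also rests on the exon length by which reads were divided. For Fbxw20 and Fbxw21 the length that made the reads whole was 1.87 and 1.61 times the coding transcript of GENCODE, and per kilobase of that transcript Fbxw21 would move from rank 6 to rank 4 in FGOs, at 282 RPKM, and Fbxw20 from rank 10 to rank 8, at 153 RPKM.

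From NGOs to FGOs, the values of all 10 members were higher, by 1.2-fold for Fbxw24 to 3.94-fold for Fbxw19. None of the 10 was at least 4-fold higher and none 4-fold lower, whereas 5.26 % of the 11852 genes with at least 0.5 RPKM in either library were 4-fold higher and 2.47 % were 4-fold lower. At 2-fold, 5 members were higher (Fbxw14, Fbxw16, Fbxw19, Fbxw21 and Fbxw22), compared with 13.3 % of the genes, and none was lower, compared with 13.3 %. The median log2 change of the 10 was 1.02, and that of the genes compared was -0.06. A higher value in FGOs was found for 46.8 % of those genes. Log2 changes are on the scale of RPKM + 0.1.

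Fbxw19 changed most, by a log2 of 1.98 with a counting interval of 1.94 to 2.01, which includes the 4-fold threshold of 2. When the libraries were scaled by a trimmed mean of ratios or by their upper quartile, Fbxw19 passed that threshold, at 2.04 with the first and by less than the counting error with the second. Fbxw22 followed with 1.66 (3.17-fold) and Fbxw14 with 1.31 (2.49-fold). Fbxw16 at 1.08, Fbxw21 at 1.05 and Fbxw13 at 0.99 were close to 2-fold. Fbxw20 at 0.81 and Fbxw18 at 0.74 came next. Fbxw15 at 0.29 and Fbxw24 at 0.27, the most abundant members in NGOs, differed least.

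From GO1 to GO2, the values of the members differed little. The log2 change ran from -0.08 for Fbxw14 to 0.59 for Fbxw19 (1.51-fold), with a median of 0.16, and that of the 11144 genes compared had a median of 0.03. None of the 10 was at least 4-fold or 2-fold apart in either direction. Among all the genes compared, 0.251 % were 4-fold higher and 0.0359 % lower, and 2.47 % were 2-fold higher and 0.844 % lower. Higher values in GO2 were found for 8 members, compared with 52.9 % of the genes, and 2, Fbxw14 and Fbxw18 (-0.05), had lower ones. These small signs depend on the scaling. Fbxw14 came to 0.06 and Fbxw18 to 0.08 with upper quartile scaling, and Fbxw24 went from 0.04 to -0.01 with the trimmed mean. After Fbxw19, the next largest change was that of Fbxw21, at 0.42, and the other members lay at or below 0.24.

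**Figure D3:**
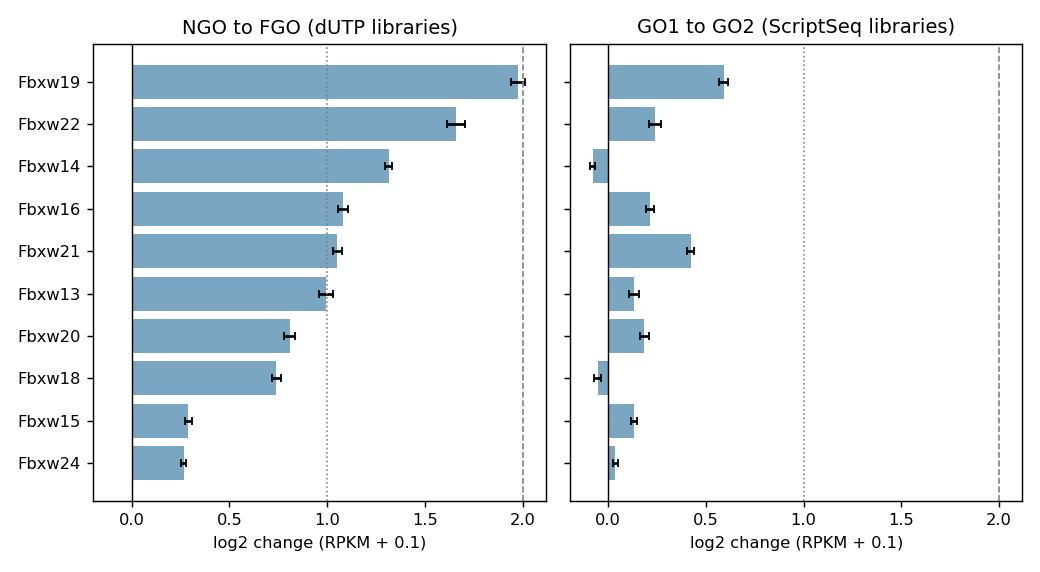
Log2 change of each member from NGOs to FGOs (left) and from GO1 to GO2 (right), as bars from 0, on the scale of RPKM + 0.1, with 95 % intervals for counting error. The dotted line marks 2-fold and the dashed line 4-fold. Fbxw19 reaches 1.98 on the left, and no bar on the right is above 0.59.

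Across the protocols the values are given as a description. None of the 10 was 4-fold higher or lower in either pair, compared with 2.28 and 4.87 % of genes from NGOs to GO1 and 1.06 and 1.23 % from GO2 to FGOs. At 2-fold, Fbxw19 was higher in GO1 (10.8 % of genes) and no other member passed in a pair (21.3 % of genes were lower in GO1, 10.5 % were higher and 3.96 % lower in FGOs). With trimmed mean or upper quartile scaling, 4 members were 2-fold higher in GO1 than in NGOs (Fbxw13, Fbxw14, Fbxw19 and Fbxw22), and still none was 2-fold apart between GO2 and FGOs. The shares of all genes at 2-fold were computed without scaling only. From NGOs to GO1, 8 members had higher values, compared with 44.0 % of genes, with the largest log2 difference for Fbxw19 (1.46). Fbxw15 (-0.39) and Fbxw24 (-0.13) had lower ones. From GO2 to FGOs, 7 members had higher values, at most 0.55 for Fbxw15, compared with 57.0 % of genes. Fbxw13, Fbxw19 and Fbxw20 had slightly lower ones, down to -0.08. The trimmed mean of all genes was shifted by -0.17 and 0.12 in these pairs. Relative to it, 9 members were higher in GO1 than in NGOs, with only Fbxw15 lower, and 5 were higher in FGOs than in GO2 (Fbxw14, Fbxw15, Fbxw16, Fbxw22 and Fbxw24). Upper quartile scaling gave the same directions.

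Outside the Fbxw family, the listed genes around the cluster were lower in level than every member in each library. On the side of the lower coordinates, Atrip, Ccdc72, Ccdc51, Gm7628 and Plxnb1 were at no more than 6.54 RPKM in any library. On the other side, Fbxw26, a further member of the tandem family, was at 70.8, 90.6, 87.7 and 102 RPKM. Beyond it, Spink8, Nme6 and Camp were at no more than 5.77 RPKM. Cdc25a, a phosphatase gene of the cell cycle, was at 16.0, 19.6, 24.5 and 30.9 RPKM. The listed genes between the members were Fbxw28 and CT025661.1. The latter lies where GENCODE has Fbxw25 and was at 15.4, 14.8, 18.0 and 20.2 RPKM, below every one of the 10 members in each library.

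**Figure D4:**
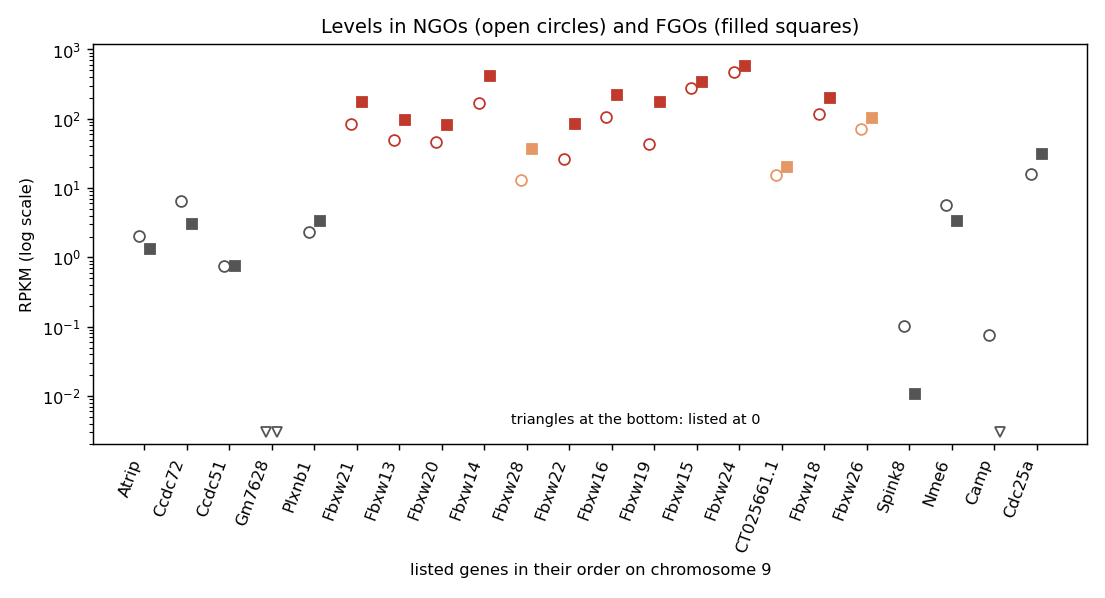
Level of the listed genes in their order on chromosome 9 (RPKM, log axis) in NGOs (open circles) and FGOs (filled squares), with the 10 members in red, other Fbxw genes of the cluster in orange and the remaining neighbours in grey. Members sit at 26.2 to 476 RPKM in NGOs and 82.3 to 573 in FGOs, above every neighbour outside the Fbxw family, of which Cdc25a is the highest (16.0 and 30.9).

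The near copy of Fbxw14 behaved differently from the members. Fbxw28 was at 13.3 RPKM in NGOs and 37.1 in FGOs, but at 86.2 in GO1 and 87.3 in GO2, so that both ScriptSeq libraries were far above both dUTP libraries. Both ScriptSeq libraries lay above both dUTP libraries for 0 of the 10 members and for 22.2 % of the 12128 genes, so this order is not particular to Fbxw28. Fbxw14 was 12.6 times Fbxw28 in NGOs and 11.2 times in FGOs, but 3.65 times in GO1 and 3.42 times in GO2. Of the 1687 windows of 100 bases, the length of a read, in the Fbxw14 transcript, 44.8 % occurred without a difference in Fbxw28 or another annotated transcript, and 85.6 % matched Fbxw28 with up to 2 mismatches. For the other 9 members, 0 to 8.3 % of the windows had an identical copy elsewhere and 3.03 to 21 % a copy within 2 mismatches. The mapping reported 1 alignment per read, and the part of read assignment in the division between Fbxw14 and Fbxw28 was not tested. Their summed level was 180, 401, 386 and 453 RPKM from the NGO to the FGO library, of which Fbxw28 was 7.38 %, 21.5 %, 22.6 % and 8.19 %. Between NGOs and FGOs the log2 change of the sum was 1.33, and between GO1 and GO2 it was -0.06, close to that of Fbxw14 alone.

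**Figure D5:**
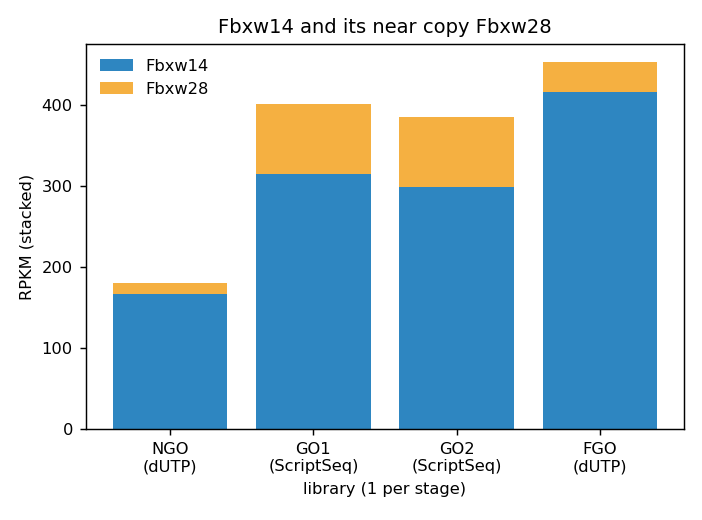
Stacked levels (RPKM) of Fbxw14 (blue) and its near copy Fbxw28 (orange) in the 4 libraries, 1 per stage. The Fbxw28 part is 7.38 and 8.19 % of the sum in the dUTP libraries and 21.5 and 22.6 % in the ScriptSeq libraries.

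Fbxw15 and Fbxw16 are also overlapped by genes that GENCODE places on the opposite strand, Gm42756 and both Gm42494 and Gm42493, which were not among the listed genes. Of the transcript windows of Fbxw16, 116 lay in Gm42494, and of those of Fbxw15, 70 lay in Gm42756. The strand setting of the counting is not given in the sources used here, so reads from either strand cannot be told apart there.

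The sequence before the annotated starts was also alike. The RefSeq promoter windows (GRCm38.p6, 250 bases before to 50 after each start) held 8 of the 10 members, all but Fbxw13 and Fbxw22, and over their 28 pairs were 64.7 to 92.4 % identical, with a median of 82.7 %. The 250 bases before the start are shown for Fbxw24 and Fbxw15, the most abundant members in NGOs, for Fbxw14, for Fbxw19 with the largest change, and for Fbxw20, which lacks 1 of the shared motifs. They are the minus strand of chr9:109626060-109626309, chr9:109568263-109568512, chr9:109287677-109287926, chr9:109495855-109496104 and chr9:109234755-109235004, respectively. Capitals mark the E-box CAGCTG, the kind of element that basic helix-loop-helix factors bind, and the element TTTAAA, which is close in letters to the core box of many promoters.
Fbxw24: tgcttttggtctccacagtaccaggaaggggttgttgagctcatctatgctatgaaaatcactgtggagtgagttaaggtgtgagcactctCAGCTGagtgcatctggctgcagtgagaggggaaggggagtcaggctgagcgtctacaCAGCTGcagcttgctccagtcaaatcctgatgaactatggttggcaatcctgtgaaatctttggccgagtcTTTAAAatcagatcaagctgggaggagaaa
Fbxw15: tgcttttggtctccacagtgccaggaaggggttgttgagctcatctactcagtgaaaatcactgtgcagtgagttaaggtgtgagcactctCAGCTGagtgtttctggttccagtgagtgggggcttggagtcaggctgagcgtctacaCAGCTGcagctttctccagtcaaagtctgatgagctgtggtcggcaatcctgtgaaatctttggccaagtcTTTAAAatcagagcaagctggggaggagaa
Fbxw14: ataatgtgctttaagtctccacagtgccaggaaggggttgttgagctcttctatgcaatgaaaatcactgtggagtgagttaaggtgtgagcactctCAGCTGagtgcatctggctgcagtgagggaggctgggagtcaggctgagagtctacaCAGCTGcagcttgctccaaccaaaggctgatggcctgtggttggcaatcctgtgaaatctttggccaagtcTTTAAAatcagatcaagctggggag
Fbxw19: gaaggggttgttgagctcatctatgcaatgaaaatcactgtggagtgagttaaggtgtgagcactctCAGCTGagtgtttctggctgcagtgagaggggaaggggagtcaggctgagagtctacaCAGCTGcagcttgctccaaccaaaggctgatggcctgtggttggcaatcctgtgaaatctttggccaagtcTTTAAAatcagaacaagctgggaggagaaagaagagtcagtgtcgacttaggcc
Fbxw20: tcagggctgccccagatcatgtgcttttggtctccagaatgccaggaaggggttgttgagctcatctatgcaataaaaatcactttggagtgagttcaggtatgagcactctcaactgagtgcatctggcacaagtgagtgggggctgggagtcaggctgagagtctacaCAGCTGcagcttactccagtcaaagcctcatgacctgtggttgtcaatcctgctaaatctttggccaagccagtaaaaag

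CAGCTG was present in all 8 windows, compared with 16.3 % of 32851 promoter windows of the same length. It occurred at 2 places in 7 of the 8 and at 1 place in Fbxw20. TTTAAA was present in 7 of 8 windows, all but that of Fbxw20, and in 13.2 % of all windows. Its first base lay 54 to 10 bases before the RefSeq start. For Fbxw19, at 54 bases, that start (109495854) lies inside the deposited gene, which begins at 109495875 on the minus strand. The sequence printed for Fbxw19 therefore includes bases of the deposited gene. The 2 starts of Fbxw21 also differ (109162022 in RefSeq and 109162041 in the deposited gene). Fbxw25, Fbxw26 and Fbxw28 of the cluster, which were not among the 10, also had CAGCTG at 2 places and TTTAAA. Neither motif is therefore particular to the members. The motifs were searched on both strands, and each of these is its own reverse complement. TATAAA was in none of the 8 and in 13.6 % of all windows. The general E-box CANNTG, which includes CAGCTG, was in all 8 and in 72.3 % of all windows. CCAAT was in 1 of 8 (37.4 % of all), TGATTG in 1 of 8 (14 %) and GGGCGG in 1 of 8 (35.7 %), and TAATTA and TAATTG were in none (5.29 % and 8.0 %). The 8 windows also shared the runs aaatctttggcc and gacttaggccac, which were found in 11 and 12 of the 32851 windows, and the genes of these windows were Fbxw genes of the cluster. Such matches describe the letters, and the windows share descent, so they are not 8 separate observations.

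Fbxw genes elsewhere in the genome were much lower at the median. The median of 10 such genes was 4.52, 2.40, 3.04 and 4.36 RPKM, compared with 94.5, 136, 177 and 187 RPKM for the chromosome 9 members. Their highest value was 34.7 RPKM, for Fbxw8 in NGOs, which was above the member Fbxw22 in that library (26.2 RPKM). Fbxw7 and Btrc, which recognise phosphorylated regulators of the cell cycle and of signalling, were at 2.19 to 4.25 and 11.8 to 17.8 RPKM. Of the 9 with at least 0.5 RPKM in NGOs or FGOs, 3 had higher values in FGOs, with a median log2 change of -0.22, and Fbxw4 was past 4-fold (4.44 to 20.5 RPKM).

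Among the genes of the SCF partners, levels ranged widely, and the median of the 10 listed was 37.0, 21.9, 21.6 and 25.5 RPKM, below that of the members. The lowest was Ube2r2, at 1.37 to 5.58 RPKM, except in GO1, where Ube2m was lower at 3.90 RPKM. The adaptor gene Skp1a was at 553, 629, 582 and 534 RPKM, above Fbxw24 in each library except that of FGOs. The scaffold gene Cul1 was at 128, 237, 248 and 214 RPKM, lowest in NGOs like 8 of the members, and the RING gene Rbx1 at 30.9, 15, 16.6 and 24.9 RPKM. Of 10 SCF genes, which also held Nedd8, its conjugating enzyme Ube2m, the ubiquitin-conjugating enzymes Cdc34, Ube2r2 and Ube2d3, the exchange factor Cand1 and the deneddylase subunit Cops5, 2 had higher values in FGOs than in NGOs (Cul1 at 0.74 and Cand1 at 0.15 on the log2 scale). None of the 10 was past 4-fold, and their median log2 change was -0.52, compared with 1.02 for the members. From GO1 to GO2 their median was -0.02.

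The genes outside the cluster whose profile over the 4 libraries was nearest to the mean profile of the members were Armcx5, Glce, Pabpc1l, Setmar and Mcm10. Nearness was the Euclidean distance between log2 profiles centred on their own mean, among 9887 other genes with a mean of at least 1 RPKM, and these 5 were at 0.0538 to 0.0683. Pabpc1l, an oocyte poly(A)-binding protein gene, went from 30.8 RPKM in NGOs through 45.4 and 52.9 to 59.0 in FGOs. Glce, a heparan sulfate epimerase gene, went from 29.5 through 44.0 and 49.0 to 57.0 RPKM. Among the members themselves, Fbxw16 (0.191) and Fbxw21 (0.196) were nearest to the mean profile, and Fbxw19 (0.932), Fbxw15 (0.849) and Fbxw24 (0.703) were farthest. Fbxw28 was farther than any member, at 1.79. Of the 9887 other genes, 94 were nearer to the mean profile than Fbxw16, and 3855 were nearer than Fbxw19. The profile is therefore not particular to the members.

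Markers were checked for the cells that the pools could hold. All 12 oocyte markers were listed and reached 1 RPKM in every library except Sohlh1 in FGOs (0.577 RPKM). Their summed levels were 7337, 5250, 5026 and 4976 RPKM, the opposite order to the members' sum. Their median level, however, was 192, 292, 326 and 389 RPKM, which is the order of the members' median. From NGOs to FGOs, 2 of the 12 had higher values (Bmp15 and Oosp1) and 2 were at least 4-fold lower (Sohlh1 and Figla), with a median log2 change of -0.84. The 9 granulosa cell markers summed to 6.07 RPKM in NGOs and 18.9 in FGOs, with 12 and 16.4 RPKM between them, which is the order of the members' sum. None was at 0, most of the sum was Nr5a2 and Cyp19a1, and Foxl2 was at no more than 0.0753 RPKM. The 4 granulosa markers with at least 0.5 RPKM in NGOs or FGOs all had higher values in FGOs, with a median log2 change of 1.37. Of these, Cyp19a1 was past 4-fold (0.518 to 6.08 RPKM). The 13 stroma, theca, vessel and blood markers summed to 8.58, 5.46, 8.76 and 10.1 RPKM, led by Pecam1 in the later libraries, with 0, 3, 3 and 5 of them at 0, and Col1a1 was at 2.24 RPKM in NGOs and at no more than 0.0191 elsewhere. Both sums were under the level of every single member of the same library, and their part in the members' changes was not tested.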

How the data were processed

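RNA-Seq values of 4 libraries, 1 per stage, were analysed. The authors depleted rRNA from total RNA, trimmed the 100-bp paired-end reads with Trim Galore 0.2.8, mapped them to GRCm38 with TopHat 2.0.9 (option -g 1, 1 alignment per read) and deposited RPKM on a linear scale for 25587 genes. The values are not whole numbers, although they were deposited under a name that speaks of read counts. The counting program, annotation and strand setting are not given in the sources used here. The totals behind the RPKM values, fitted on single-exon GENCODE M21 genes, were 110595000 (NGOs), 126797000 (GO1), 241386000 (GO2) and 119629000 (FGOs), and at least 99.6 % of those genes' values were then whole (tolerance 0.05 reads). These totals are several times the uniquely mapped reads, so a fragment may count more than once, and intervals were also computed with reads divided by 4. Exon lengths of the members were those making reads whole in all 4 libraries (tolerance 0.03). For most members more than 1 length did so, with 5 for Fbxw19. A length close to an annotated GENCODE length was then taken where there was one, and otherwise the shortest, so the recovered reads rest on this choice. Python 3.11.15, numpy 2.4.6, pandas 2.3.3, scipy 1.17.1, Biopython 1.88 and matplotlib 3.10.9 were used. Changes were log2 ratios of RPKM + 0.1 over genes with at least 0.5 RPKM in either library, and the threshold was 4-fold. The script was tested on simulated data. Named genes were the 10 members, listed marker and SCF genes, the 5 listed genes on each side of the cluster and those between, and the 5 nearest profiles. The members and lists were chosen with earlier results of these data known.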

Additional observations from a re-analysis of the deposited data

How the results depend on the processing

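Pseudocounts and the filter on low values can hardly turn a sign at the level of the members. Of the 20 values of the 10 members under the 2 scalings, 20 kept their direction between NGOs and FGOs and 17 between GO1 and GO2. The exceptions were Fbxw14 (0.0556) and Fbxw18 (0.0802) with upper quartile scaling and Fbxw24 (-0.00655) with the trimmed mean, and the cause was not tested. The number of members at least 4-fold higher from NGOs to FGOs was 1 instead of 0 with either scaling (Fbxw19). The share of all genes was then 5.73 % with the trimmed mean and 5.48 % with the upper quartile. At 2-fold, a threshold chosen after seeing the data, the number of members was 5, compared with 13.3 % of genes. It was 6 with either scaling, for which the share of all genes at 2-fold was not computed. All 10 stayed at or above thresholds of 0.5 and 5 RPKM in every library. As a share of the summed RPKM (ppm), the sum of the members was 7412, 10123, 11419 and 12578 from the NGO to the FGO library, and with trimmed mean scaling it was 1981 RPKM in GO1, 2162 in GO2 and 2470 in FGOs, so that the order of the libraries was the same. Ranked by reads without division by exon length, 5, 2, 4 and 3 members kept their rank in NGOs, GO1, GO2 and FGOs, and ranked per coding transcript length, a setting chosen after seeing the data, 5, 4, 4 and 4 did. The number of neighbours in the order with overlapping counting intervals was 5 instead of 2 with the reads divided by 4, likewise chosen after seeing the data. The share of all genes 4-fold higher or lower from NGOs to FGOs was 1.21 and 0.397 % with a pseudocount of 1 and 2.58 and 1.24 % without a filter on low values. From GO1 to GO2 the shares were 0 and 0.00897 % with a pseudocount of 1, 0.113 and 0.0195 % without a filter, 0.503 % higher with a pseudocount of 0.01, and 0.0178 % lower with upper quartile scaling. No paired analysis was possible because each stage has 1 library, and no library could be left out. The depth of the members is 5291 recovered reads or more, an upper figure since fragments may have been counted more than once, and the lack of replicates leaves the spread between pools unknown.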
